A study of Mus musculus with 4 samples.

Results

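The genes described here encode core subunits of Polycomb repressive complex 1 (PRC1) in the newborn mouse retina. They are 9 named genes of the 21835 genes analyzed. Cbx2, Cbx6, Cbx7 and Cbx8 encode chromobox proteins, Ring1 and Rnf2 the RING ligases, Bmi1 a Polycomb group RING finger protein (PCGF), and Phc1 and Phc2 polyhomeotic proteins. They were chosen by name, with no expression value in the rule, although earlier results of these data were known. Levels are FPKM, fragments counted per length of transcript and per size of library, and all 9 genes exceeded an FPKM of 1 in each of the 4 libraries.

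Retinas of pHes1-EGFP mice, in which the promoter of the Notch target Hes1 drives a destabilized EGFP, were dissociated and sorted into EGFP-positive cells (pHes1_EPCs) and EGFP-negative cells (pHes1_ENCs). The 4 groups are pHes1_ENC and pHes1_EPC at postnatal day 1 (P1) and the same fractions at postnatal day 4 (P4), with 1 RNA-seq library in each. All mice carried the transgene, were of the strain FVB/N by the labels and received no treatment. The reporter limits what the fractions stand for, since Hes1 promoter activity marks progenitors and Müller glia alike, and the number of animals pooled is not given in the sources used here. A single library per group allows no test within an age or a fraction, so each such difference is a description of these libraries, without a replicate check.

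In canonical PRC1, a chromobox protein binds histone H3 trimethylated at lysine 27, the mark made by Polycomb repressive complex 2 (PRC2). The RING ligase, paired with a PCGF protein such as Bmi1, attaches ubiquitin to histone H2A, and polyhomeotic proteins link complexes through their SAM domains. The complex is known for keeping developmental genes silent, and Bmi1 for sustaining the proliferation of neural progenitors through repression of the cell cycle inhibitor gene Cdkn2a.

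Judged by how wide the Cufflinks intervals were, the depth was 13.7 to 14.9 M reads per library. The fractions differed as their labels imply, but neither was free of the markers of the other. Hes1 had an FPKM of 105 and 93.5 in pHes1_EPC at P1 and P4 and of 16.6 and 3.59 in pHes1_ENC, and all 11 progenitor and Müller glia markers were past 2-fold higher in pHes1_EPC at both ages. All 12 proliferation genes were also past 2-fold higher in pHes1_EPC at both ages, with a summed FPKM of 344, 1525, 81.8 and 610 in P1 pHes1_ENC, P1 pHes1_EPC, P4 pHes1_ENC and P4 pHes1_EPC. Of 10 rod markers, 9 at P1 and 10 at P4 were past 2-fold lower in pHes1_EPC (summed FPKM 813, 57.6, 5883 and 1134, in the same order), and red blood cell genes were nearly limited to pHes1_ENC (summed FPKM 185, 0.615, 502 and 6.82). Of 6 cone markers, 4 at P1 and 3 at P4 were past 2-fold lower in pHes1_EPC, as were 3 and 2 of 8 amacrine, horizontal and ganglion markers. At P1, 1 of 5 bipolar markers was past 2-fold lower and 3 of 6 microglial markers were past 2-fold higher, and at P4 the counts were 1 higher and 0. Of 5 endothelial genes, Pecam1, Cdh5 and Tie1 stayed at an FPKM of 0.142 or less in every library. Kdr was past 2-fold higher in pHes1_EPC at both ages (46.9, 209, 12.0 and 189, in the same order), and Cldn5 was past 2-fold lower at P1 (16.3, 3.49, 2.59 and 4.06). Each library is a mixture of cells, so fewer cells of a type and less RNA per cell cannot be told apart, and the part of these differences in composition in the PRC1 values was not tested.

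Levels of the 9 genes spanned an FPKM from 4.75 for Cbx7 in P4 pHes1_EPC to 101 for Phc2 in the same library, and both genes held the last and the first rank in all 4 libraries. In P1 pHes1_ENC the order from high to low was Phc2, Bmi1, Phc1, Rnf2, Cbx2, Cbx6, Ring1, Cbx8 and Cbx7, and no neighbouring intervals overlapped. In P1 pHes1_EPC, Bmi1 held rank 5. Phc1, Rnf2 and Cbx2 had overlapping intervals there, as did Bmi1 with Cbx6 and Cbx8 with Ring1. In P4 pHes1_ENC, neighbouring intervals overlapped for Phc1 with Bmi1, for Cbx8 with Cbx2 and for Cbx2 with Ring1. In P4 pHes1_EPC, Rnf2 came next after Phc2, with an interval overlapping that of Bmi1, and Cbx2, Cbx6, Ring1 and Cbx8 formed a run in which each neighbour overlapped the next. These intervals are the 95% intervals of Cufflinks, which cover counting error only. Their half-width was 3.42% to 12.7% of the FPKM, and they correspond to about 235 to 3473 reads per gene. In 4 of the 36 member values the FPKM lay above its own interval, for Cbx8 in both P4 libraries and for Bmi1 in both pHes1_ENC libraries.

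**Figure D1:**
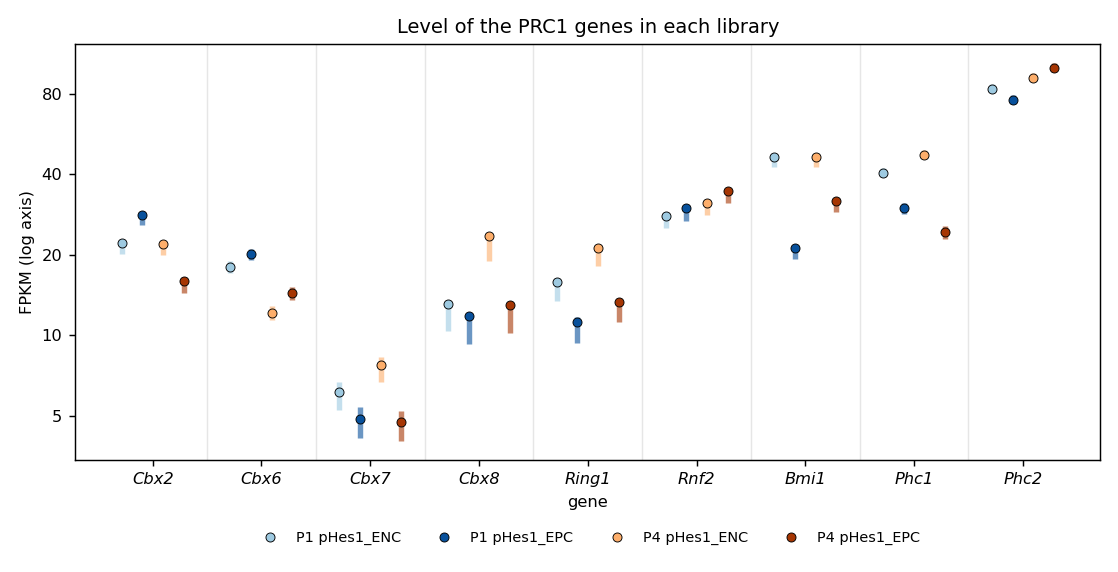
FPKM (log axis) of the 9 PRC1 genes in the 4 libraries; points are the FPKM and bars the Cufflinks 95% intervals, which cover counting error only. Phc2 lay highest and Cbx7 lowest in every library, and Bmi1, Phc1 and Ring1 were lower in pHes1_EPC than in pHes1_ENC at both ages with intervals apart.

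Between the fractions, 1 of the 9 genes passed 2-fold on the log2(FPKM + 1) scale. That gene was Bmi1, lower in pHes1_EPC at P1. In the same comparison 11.5% of the 12946 genes reaching an FPKM of 1 in some library were past 2-fold lower and 10.3% were past 2-fold higher, where no PRC1 gene was found. At P4, 0 of the 9 genes passed 2-fold, against 9.15% of all genes in the lower and 16.6% in the higher direction. By intervals that do not overlap, 4 of the genes were lower in pHes1_EPC at P1 (32.7% of all genes) and 2 were higher (34.9%). At P4, 6 were lower (29.2% of all genes) and 2 were higher (44.2%). The median difference of the 9 genes, pHes1_EPC minus pHes1_ENC, was -0.14 at P1 and -0.54 at P4, beside medians of 0.02 and 0.15 over all genes. Ring1, Bmi1 and Phc1 were lower with intervals apart at both ages, and Cbx6 was higher with intervals apart at both ages, although its P4 difference was -0.04 once the libraries were set to the same FPKM total.

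A fit of fraction and age together over the 4 libraries, added after the data were seen, leaves 1 residual degree of freedom and takes any change of the fraction effect with age as error. With limma and Benjamini-Hochberg adjustment over all genes, 0 of the 9 PRC1 genes had an adjusted p under 0.05 for the fraction, where 9.30% of all genes were higher and 6.40% lower in pHes1_EPC. At an unadjusted p under 0.05 from limma there were 3 of the 9, beside 4237 of the 12946 genes. Each of the 3 was lower in pHes1_EPC at both ages. For Bmi1 the limma effect was -0.82 ± 0.25 (SE), with an unadjusted p of 0.0153 and an adjusted p of 0.0751. The adjusted p from limma was 0.112 for Phc1 (effect -0.68 ± 0.24) and 0.151 for Ring1 (effect -0.55 ± 0.22).

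**Figure D2:**
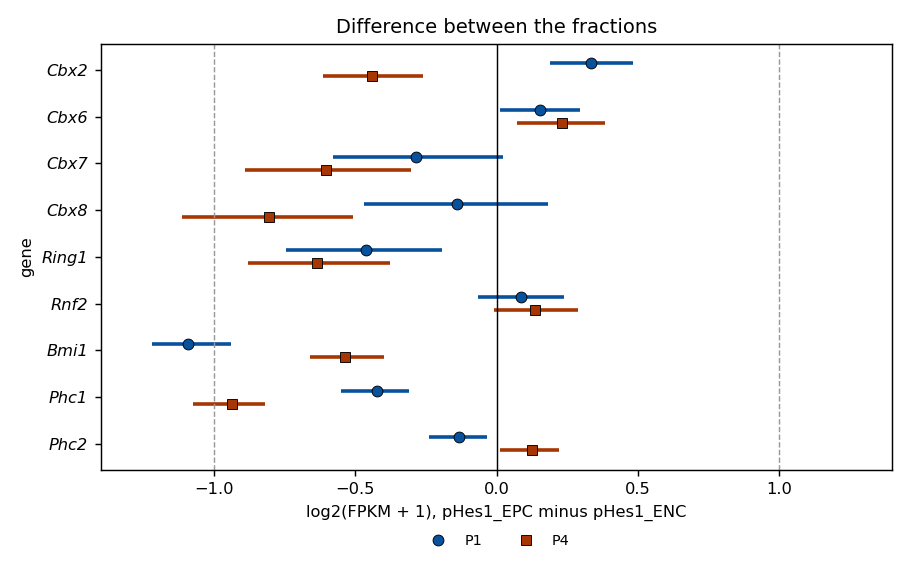
Difference in log2(FPKM + 1), pHes1_EPC minus pHes1_ENC, of each PRC1 gene at P1 (circles) and P4 (squares); bars run between opposite ends of both Cufflinks intervals and dashed lines mark 2-fold. Bmi1 at P1 lies past the lower line at -1.09, and Cbx2 lies above 0 at P1 and below 0 at P4.

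The chromobox proteins carry the chromodomain at their N-terminus. The first 180 coding bases of Cbx6, Cbx7 and Cbx8, which span the start codon and much of that domain, are printed 5′ to 3′ from the Gencode vM1 transcripts, to show how far the genes differ in the part they have most in common. Capitals mark the longest run of bases that each gene shares exactly with either of the other genes shown.
Cbx6: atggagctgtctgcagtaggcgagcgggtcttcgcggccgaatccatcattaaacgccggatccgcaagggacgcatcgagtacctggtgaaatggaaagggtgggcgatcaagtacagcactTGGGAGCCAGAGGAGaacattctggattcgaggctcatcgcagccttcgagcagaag
Cbx7: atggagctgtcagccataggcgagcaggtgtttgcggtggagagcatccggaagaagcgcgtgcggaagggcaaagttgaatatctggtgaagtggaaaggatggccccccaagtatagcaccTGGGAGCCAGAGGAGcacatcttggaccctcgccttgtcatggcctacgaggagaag
Cbx8: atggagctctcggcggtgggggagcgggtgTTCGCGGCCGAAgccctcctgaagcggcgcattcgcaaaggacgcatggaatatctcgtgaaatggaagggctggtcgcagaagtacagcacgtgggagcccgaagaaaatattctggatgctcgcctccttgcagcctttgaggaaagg
On mm9 these bases lie in the coding exons of Cbx6 between chr15:79664008-79664641 on the minus strand (4 exons), of Cbx7 between chr15:79751868-79762946 on the minus strand (4 exons) and of Cbx8 between chr11:118901312-118902164 on the minus strand (4 exons). Identity ran from 68.9% of the aligned bases between Cbx7 and Cbx8 to 77.8% between Cbx6 and Cbx8. The longest exact run was 15 bases, shared by Cbx6 and Cbx7, both in this stretch and over the whole coding sequences of the 3 genes. The reads were 36 bases long, so no read matching 1 of these coding sequences exactly matches another.

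Cbx2 (chr11:118884343-118892584) had an FPKM of 22.1 in pHes1_ENC and 28.2 in pHes1_EPC at P1, and in the same order at P4 it was 22.0 and 15.9. It was the highest of the 4 chromobox genes in 3 libraries and stood second to Cbx8 in P4 pHes1_ENC, where their intervals overlapped. The pHes1_ENC values were close at both ages, and the pHes1_EPC value lay above them at P1 and below them at P4. The difference between the fractions was 0.33 (range 0.19 to 0.48) at P1 and -0.44 (range -0.61 to -0.26) at P4.

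Cbx8 (chr11:118899750-118902227) lies 7165 bases from Cbx2 on the opposite strand. The FPKM of Cbx8 was 13.1, 11.8, 23.6 and 13.0 in P1 pHes1_ENC, P1 pHes1_EPC, P4 pHes1_ENC and P4 pHes1_EPC. P4 pHes1_ENC stood above the other 3 libraries, whose intervals overlapped. The difference between the fractions was -0.14 (range -0.47 to 0.18) at P1 and -0.81 (range -1.11 to -0.51) at P4. Both neighbours, Cbx2 and Cbx8, were lower in pHes1_EPC at P4. The gene line of Cbx8 covers 1393 of the 3580 bases of its longest Gencode transcript, so its FPKM rests on a short model.

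Cbx6 (chr15:79654328-79664763) had an FPKM of 18.0, 20.1, 12.1 and 14.4 in the same order of libraries. Both P4 values lay below both P1 values, and within each age pHes1_EPC was the higher. The difference of Cbx6 was 0.15 (range 0.01 to 0.29) at P1 and 0.23 (range 0.07 to 0.38) at P4. The gene line overlaps that of Npcd, so the split of reads between both is uncertain. Cbx7 (chr15:79746237-79763076), 81473 bases from Cbx6, was the least abundant member, with an FPKM of 6.14, 4.86, 7.74 and 4.75. The pHes1_EPC values were close at both ages, and both were below the pHes1_ENC values. The difference was -0.28 (range -0.58 to 0.02) at P1, where the intervals overlapped, and -0.60 (range -0.89 to -0.30) at P4.

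As shares of the summed FPKM of Cbx2, Cbx6, Cbx7 and Cbx8, which do not depend on the scaling of a library, Cbx2 made up 37.3% in pHes1_ENC and 43.4% in pHes1_EPC at P1, and 33.6% and 33.1% at P4. The share of Cbx8 was 22.1%, 18.2%, 36.03% and 27.1% in the same order, and that of Cbx6 was 30.3%, 30.9%, 18.5% and 29.9%. Cbx2 had the largest share of the 4 genes in 3 of the libraries, and Cbx8 had it in P4 pHes1_ENC. The ratio of Cbx8 to Cbx6 was 0.73 in pHes1_ENC and 0.59 in pHes1_EPC at P1, and 1.95 and 0.91 at P4. P4 pHes1_ENC was the only one of the 4 libraries in which Cbx8 exceeded Cbx6.

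The RING ligases carry the catalytic RING domain of the complex. Ring1 (chr17:34157737-34161625) had an FPKM of 15.9 in pHes1_ENC and 11.2 in pHes1_EPC at P1, and in the same order at P4 it was 21.3 and 13.3. Both pHes1_EPC values lay below both pHes1_ENC values, with a difference of -0.46 (range -0.74 to -0.19) at P1 and -0.64 (range -0.88 to -0.38) at P4. Rnf2 (chr1:153316536-153347953), the other ligase, also called Ring1B, had an FPKM of 28.1, 29.9, 31.4 and 34.6 in the same order. Its intervals overlapped between the fractions at both ages, with differences of 0.09 (range -0.06 to 0.24) and 0.14 (range -0.01 to 0.29).

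Rnf2 was the more abundant ligase in all 4 libraries. Its ratio to Ring1 was 1.77 (range 1.54 to 2.09) in P1 pHes1_ENC and 2.66 (range 2.31 to 3.19) in P1 pHes1_EPC. At P4 the ratio was 1.47 (range 1.31 to 1.73) in pHes1_ENC and 2.59 (range 2.27 to 3.09) in pHes1_EPC. The ranges of the fractions did not overlap at either age, and the ranges of both pHes1_EPC libraries did.

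Bmi1 (chr2:18598645-18608256), also called Pcgf4, had an FPKM of 46.5 in pHes1_ENC and 21.3 in pHes1_EPC at P1, and in the same order at P4 it was 46.5 and 31.7. The pHes1_ENC values were equal to the digits given, and both pHes1_EPC values lay below them. The FPKM was 2.19 times higher in pHes1_ENC than in pHes1_EPC at P1 (difference -1.09, range -1.22 to -0.94) and 1.47 times higher at P4 (difference -0.54, range -0.66 to -0.40). Bmi1 was thus lower in the fraction with the higher proliferation genes at both ages. Among the 6 PCGF genes it made up 33.7%, 22.6%, 35.1% and 31.4% of the summed FPKM, the largest share in every library. Its ratio to Pcgf2, the other PCGF of canonical PRC1, was 1.71 (range 1.49 to 1.81), 1.22 (range 1.03 to 1.35), 2.21 (range 1.90 to 2.36) and 1.88 (range 1.60 to 2.06). The ranges of the fractions were apart at P1 and overlapped at P4.

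The value of Bmi1 carries a limit of mapping. Of the 3559 stretches of 36 bases in its transcript, 999 (28.1%) also occur elsewhere in the mm9 genome. Of these, 935 lie in 1 region, chrX:146655275-146657959, where the files hold no gene line. The aligner kept reads with as many as 50 positions, and how reads were divided between both places was not tested. In Cbx2 the share was 2.59% (96 of 3705 stretches) and in Phc1 it was 0.368%, and in the other 6 genes 0 stretches recurred.

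Phc1 (chr6:122267749-122287033) had an FPKM of 40.4 in pHes1_ENC and 29.9 in pHes1_EPC at P1, and in the same order at P4 it was 47.3 and 24.3. Both pHes1_EPC values lay below both pHes1_ENC values. The difference was -0.42 (range -0.55 to -0.31) at P1 and -0.93 (range -1.07 to -0.82) at P4, where the FPKM was 1.95 times higher in pHes1_ENC. Phc2 (chr4:128331946-128430125) had an FPKM of 83.5, 76.0, 92.1 and 101 in the same order. Its difference was -0.13 (range -0.24 to -0.03) at P1 and 0.13 (range 0.01 to 0.22) at P4. The small positive value at P4 was below 0 once the libraries were set to the same FPKM total (-0.16), by median-of-ratios scaling (-0.05) and after quantile normalization (-0.22), and the sign of Rnf2 at P4 turned in the same 3 settings (-0.15, -0.04 and -0.02).

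Within a library, where scaling plays no part, Phc2 exceeded Phc1 by 2.07 times (range 1.93 to 2.23) in P1 pHes1_ENC and by 2.54 times (range 2.35 to 2.78) in P1 pHes1_EPC. At P4 the ratio was 1.95 (range 1.81 to 2.09) in pHes1_ENC and 4.14 (range 3.79 to 4.56) in pHes1_EPC. P4 pHes1_EPC stood above the other libraries, and the ranges of the fractions were apart at both ages. Phc2 made up 76.1% of the summed FPKM of Phc1, Phc2 and Phc3 in P4 pHes1_EPC and 61.8% to 66.4% in the other 3 libraries.

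**Figure D3:**
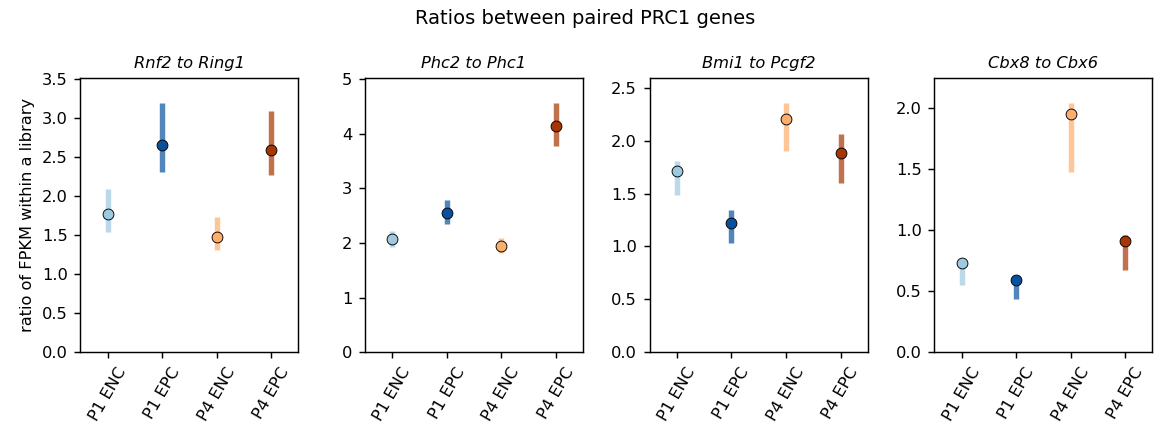
Ratio of FPKM within each library for Rnf2 to Ring1, Phc2 to Phc1, Bmi1 to Pcgf2 and Cbx8 to Cbx6; bars run between opposite ends of both Cufflinks intervals. The first 2 ratios were higher in pHes1_EPC at both ages, with 4.14 for Phc2 to Phc1 in P4 pHes1_EPC, and Cbx8 to Cbx6 exceeded 1 only in P4 pHes1_ENC.

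Ring1, Bmi1 and Phc1 were lower in pHes1_EPC with intervals apart at both ages. Cbx7 and Cbx8 were also lower at both ages, with overlapping intervals at P1. The 250 bases before the start sites of Ring1, Bmi1 and Phc1 are printed here to show what these promoters hold. The sequences are those of RefSeq on GRCm38.p6, a later build than that of the expression files, and lie at chr17:34024681-34024930 (minus strand) for Ring1, at chr2:18676768-18677017 (plus strand) for Bmi1 and at chr6:122340228-122340477 (minus strand) for Phc1. Capitals mark matches, on either strand, to CACNAG and CACGCG, the N box and the class C site that Hes1 and related repressors can bind, and to TAATCC, a site of the photoreceptor factors Otx2 and Crx.
Ring1: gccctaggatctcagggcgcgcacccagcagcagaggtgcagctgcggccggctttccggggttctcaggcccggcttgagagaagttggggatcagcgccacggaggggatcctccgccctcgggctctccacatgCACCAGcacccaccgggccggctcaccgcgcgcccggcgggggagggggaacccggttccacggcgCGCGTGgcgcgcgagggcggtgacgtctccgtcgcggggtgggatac
Bmi1: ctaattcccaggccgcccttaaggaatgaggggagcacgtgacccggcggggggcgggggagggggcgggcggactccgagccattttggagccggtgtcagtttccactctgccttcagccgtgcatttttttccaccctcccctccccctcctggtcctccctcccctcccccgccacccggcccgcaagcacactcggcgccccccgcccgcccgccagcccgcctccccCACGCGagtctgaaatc
Phc1: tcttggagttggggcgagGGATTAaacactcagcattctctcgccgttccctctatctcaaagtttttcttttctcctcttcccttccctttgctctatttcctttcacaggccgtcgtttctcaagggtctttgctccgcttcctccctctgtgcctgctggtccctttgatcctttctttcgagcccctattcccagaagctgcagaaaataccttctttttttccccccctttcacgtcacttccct
Ring1 held 1 CACNAG, starting 113 bases before the start site, and 1 CACGCG, starting 47 bases before it. Bmi1 held 1 CACGCG, starting 17 bases before the start site, and Phc1 held 1 TAATCC, starting 232 bases before it. None of these matches overlapped another. Over all 32851 promoters of this length in the table, 36.7% held CACNAG, 7.62% CACGCG and 6.25% TAATCC. The table held promoters for 8 of the 9 genes, with 3 for Phc2. Of the other genes, Cbx7 held 1 CACNAG and 2 CACGCG, Rnf2 held 1 CACNAG, and Cbx6, Cbx8 and Phc2 held none of the 3 motifs. GC content was 73.6% for Ring1, 70.4% for Bmi1 and 49.6% for Phc1, beside a median of 52.4% over all promoters, with 30, 21 and 8 CpG dinucleotides beside a median of 6. A match of letters is a description and not evidence of binding.

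Between the ages, 0 of the 9 genes passed 2-fold in either fraction. In pHes1_EPC 7.04% of all genes were past 2-fold higher at P4 and 4.33% lower, and in pHes1_ENC 4.67% were higher and 10.0% lower. By intervals that do not overlap, 3 genes were higher at P4 in pHes1_EPC (43.3% of all genes) and 3 were lower (22.9%). In pHes1_ENC 6 genes were higher (27.4% of all genes) and 1 was lower (31.5%). The median difference of the 9 genes, P4 minus P1, was 0.13 in pHes1_EPC and 0.16 in pHes1_ENC, beside 0.17 and -0.01 over all genes. The median in pHes1_EPC was below 0 by median-of-ratios scaling (-0.05), with the libraries set to 1 total (-0.19), after quantile normalization (-0.005) and with the length correction (-0.09). The median of all genes in pHes1_EPC moved down too, to 0.009, -0.11, 0.02 and 0 in the same order. The last is fixed by the correction. In the limma fit of fraction and age, 0 of the 9 genes had an adjusted p under 0.05 for age. By the same rule 0.718% of all genes were higher and 0.216% lower at P4. At an unadjusted p under 0.05 from limma there were 0 of the 9, beside 2222 of the 12946 genes. The lowest adjusted p from limma among the 9 genes was 0.324, for Cbx6 (effect -0.50 ± 0.22). These age comparisons use the same 4 libraries as those between the fractions and are not independent of them. Cell type markers differed with age too. The summed FPKM of the rod markers at P1 and P4 was 57.6 and 1134 in pHes1_EPC and 813 and 5883 in pHes1_ENC. The part of composition in these age values was not tested.

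In pHes1_EPC the members higher at P4 were Bmi1 (0.55), Phc2 (0.40) and Rnf2 (0.21), and those lower were Cbx2 (-0.78), Cbx6 (-0.46) and Phc1 (-0.29). In pHes1_ENC the members higher at P4 were Cbx8 (0.80), Ring1 (0.40), Cbx7 (0.29), Phc1 (0.22), Rnf2 (0.16) and Phc2 (0.14), and Cbx6 was lower (-0.53). Cbx6 was lower at P4 in both fractions. Phc1 was lower in pHes1_EPC and higher in pHes1_ENC. Bmi1, with a difference of -0.0004 in pHes1_ENC, differed with age in pHes1_EPC alone by this measure. With the same total, median-of-ratios scaling and quantile normalization, Bmi1 was -0.13, -0.05 and -0.15 in pHes1_ENC. In pHes1_EPC it was 0.24, 0.36 and 0.36 in the same order. The difference between the fractions was not tested. The sign of Rnf2 in pHes1_EPC turned after scaling to the same total (-0.12) and after quantile normalization (-0.005), and that of Phc2 in pHes1_ENC after quantile normalization (-0.05).

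**Figure D4:**
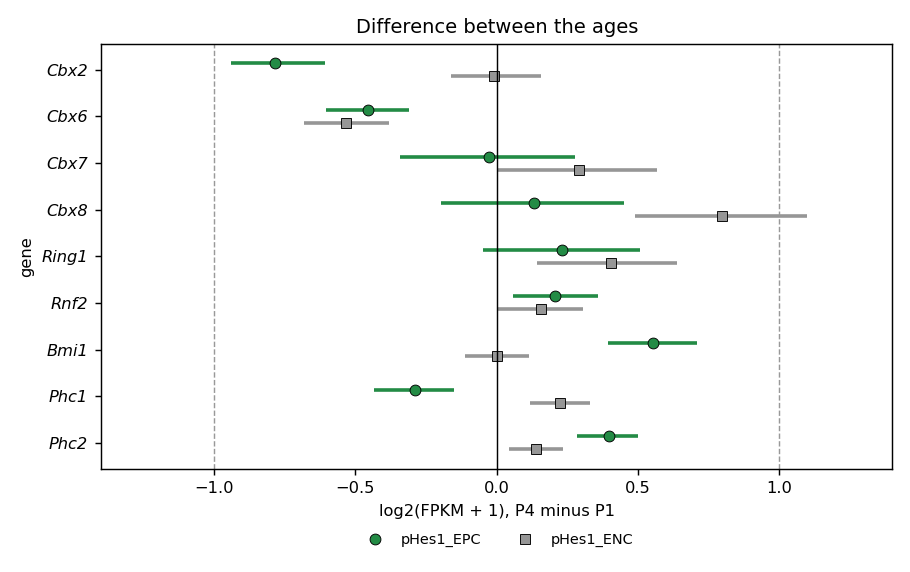
Difference in log2(FPKM + 1), P4 minus P1, of each PRC1 gene in pHes1_EPC (circles) and pHes1_ENC (squares); bars run between opposite ends of both Cufflinks intervals and dashed lines mark 2-fold. Cbx2 at -0.78 and Bmi1 at 0.55 lie away from 0 in pHes1_EPC and near 0 in pHes1_ENC, and Cbx8 lies at 0.80 in pHes1_ENC.

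Other genes of canonical PRC1 were measured beside the 9 genes. Of Phc3, Pcgf2, Scmh1, Scml2 and Scml4, 3 were lower by intervals at each age (median difference -0.12 at P1 and -0.31 at P4), and 0 were past 2-fold. Pcgf2, the closest relative of Bmi1, was lower by 0.61 at P1 and by 0.31 at P4 on the log2 scale. Of 13 genes of variant PRC1, in which Rybp or Yaf2 takes the place of the chromobox protein, 8 were lower by intervals at each age, and 3 at P1 and 2 at P4 were higher. Rybp had a difference of -0.76 at P1 and -0.75 at P4, while E2f6, a DNA-binding subunit, had 1.15 and 0.84. Pcgf5 had 1.22 at P1 and 0.31 at P4. Auts2, a partner of Pcgf3 and Pcgf5 complexes, was past 2-fold lower at P1 (-1.79) and Bcor at P4 (-1.38). Of 5 genes of H2A deubiquitination, which removes the mark of PRC1, 2 were higher and 0 lower by intervals at P1, and 1 was higher and 2 were lower at P4.

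None of these genes given with a value between the fractions changed sign under the 3 scalings. Among the genes counted without a value, Asxl1, the deubiquitination gene higher by intervals at P4, fell below 0 with the same total (-0.05). Bap1 and Scml2 at P4 and Bcorl1 and Mysm1 at P1, whose intervals overlapped between the fractions, also changed sign under a scaling. The 7 genes of PRC2, which makes the mark that chromobox proteins read, had a median difference of 0.48 at P1 and -0.06 at P4. Ezh2, the methyltransferase of dividing cells, was higher in pHes1_EPC (0.84 at P1 and 0.59 at P4), and its relative Ezh1 was past 2-fold lower (-1.11 and -1.27), as was the cofactor Jarid2 (-1.35 and -1.64). Cbx1, Cbx3 and Cbx5 carry a chromodomain too, but belong to heterochromatin protein 1 (HP1) and read trimethylated lysine 9. All 3 were higher by intervals in pHes1_EPC at both ages, with a median difference of 0.47 at each (0.19 to 0.44 under the 3 scalings). Of the 9 PRC1 genes, 4 at P1 and 6 at P4 were lower by intervals, and 2 were higher at each age. Over all genes, 34.9% at P1 and 44.2% at P4 were higher by intervals, and 32.7% and 29.2% were lower. No test of the difference between these lists was made. Of the genes classically repressed by Polycomb, 0 of 39 Hox genes reached an FPKM of 1 in any library, the highest value being 0.0518. Cdkn2a had an FPKM of 0.150, 0.944, 0.162 and 1.17 and Cdkn2b of 0.153, 0.352, 0.198 and 0.679 in P1 pHes1_ENC, P1 pHes1_EPC, P4 pHes1_ENC and P4 pHes1_EPC. The higher values of both were in pHes1_EPC, but the intervals of Cdkn2b overlapped at P1 (difference 0.23, range -0.12 to 0.57). Only Cdkn2a in P4 pHes1_EPC reached an FPKM of 1, and a link of these low values to Bmi1 was not tested.

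**Figure D5:**
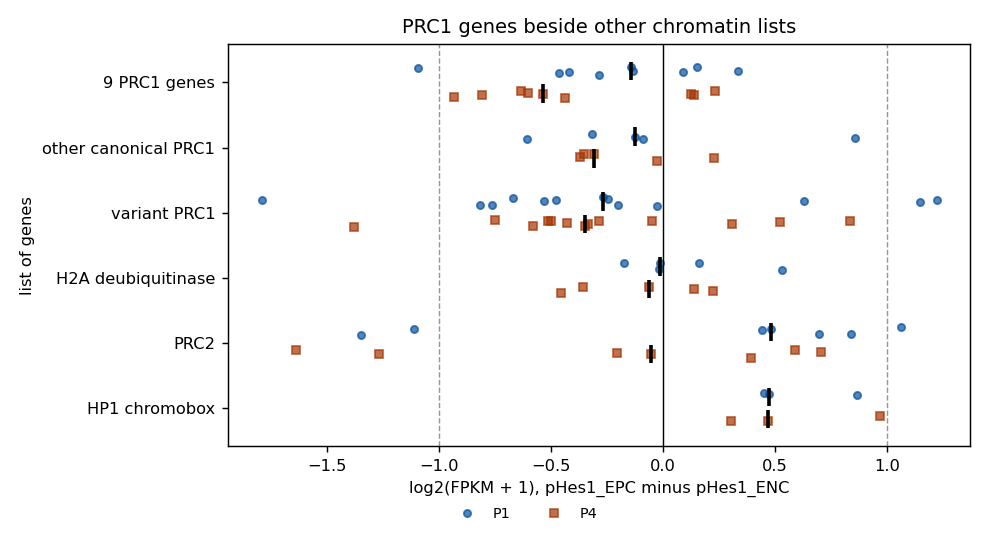
Difference in log2(FPKM + 1), pHes1_EPC minus pHes1_ENC, of the 9 PRC1 genes and of 5 other lists at P1 (circles) and P4 (squares); each point is a gene, black bars are medians and dashed lines mark 2-fold. The medians of the 9 genes lie at -0.14 and -0.54 and those of the HP1 genes at 0.47 at both ages.

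Among 10343 genes that reached an FPKM of 5 in some library, the profiles most like that of Bmi1, the member with the lowest mean difference between the fractions, were those of Rab2b, Ccng2 and Tmem8b. Likeness was the Euclidean distance between centred profiles of log2(FPKM + 1) over the 4 libraries, and it was 0.05 to 0.06 for these 3 genes. Ccng2, for example, had an FPKM of 78.9, 36.9, 83.0 and 55.1 in P1 pHes1_ENC, P1 pHes1_EPC, P4 pHes1_ENC and P4 pHes1_EPC. The profiles most like that of Cbx6, the member with the highest mean difference, were those of Itsn1, Asap2 and Gga2, at distances of 0.07 to 0.10. With 4 libraries many genes lie close by, and 30 genes were within a distance of 0.2 of Bmi1 and 50 of Cbx6.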

How the data were processed

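RNA of EGFP-positive and EGFP-negative cells sorted from pHes1-EGFP retinas at P1 and P4 was sequenced from random-primed cDNA as single reads of 36 bases, with 1 library in each group. The authors processed the reads with bcl2fastq 1.8.4, aligned them to NCBI37/mm9 with TopHat 2.0.8b, allowing 50 positions for a read, and deposited gene FPKM with 95% intervals from Cufflinks 2.1.1. The gene annotation is not given in the sources used here. FPKM are per transcript length and library size and were used without further scaling. The sum of FPKM over all lines was 342618 to 450080.

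Each table held 23021 gene lines. Small RNAs recognized by symbol (780 lines) were left out and 235 symbols with more than 1 line were represented by their most abundant line, which left 21835 genes. Differences are on the log2(FPKM + 1) scale, which understates those of low genes, and a gene was called past 2-fold when its difference exceeded 1 in size. Percentages of all genes refer to the 12946 genes reaching an FPKM of 1 in some library, since genes below it cannot pass 2-fold with a pseudocount of 1. Ranges run between opposite ends of both intervals and cover counting error only. The genes named are the 9 members, genes of the lists of PRC1, PRC2, HP1, deubiquitinase, Polycomb-repressed and cell type genes, and the 3 genes with the profile nearest to the members with the highest and lowest mean difference. In all, 1 gene of the lists and 1 coding sequence are not reported here. The members and lists were chosen with earlier results of these data known. The alternatives were another pseudocount or none, FPKM filters, 3 scalings, small RNAs kept, status filtering, summed lines, intervals in place of 2-fold, and a length correction over 20 bins. A fit of fraction and age without an interaction over the 4 libraries (limma 3.58.1 in R 4.3.3, log2(FPKM + 1), trended variance) was added after the data were seen. Recurrence of 36-base stretches was searched on both strands of NCBI37, each within the gene line of the files. Python 3.11.15, numpy 2.4.6, pandas 2.3.3, biopython 1.88 and matplotlib 3.10.9 were used.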

Additional observations from a re-analysis of the deposited data

Results flagged for a closer look

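Some genes moved in opposite directions, with intervals apart on both sides, in 2 settings of the same contrast. These differences between contrasts were not tested, since each group is 1 library. Cbx2 had a fraction difference of 0.33 at P1 and -0.44 at P4, a change of -0.77. Phc2 had -0.13 at P1 and 0.13 at P4, a change of 0.26, and its sign at P4 depends on the scaling. The age difference of Phc1 was 0.22 in pHes1_ENC and -0.29 in pHes1_EPC, which differ by -0.51.

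Outside the 9 genes, the same held between the fractions for Suz12 (0.44 at P1 and -0.21 at P4, a change of -0.65) and Asxl2 (0.16 and -0.46, a change of -0.62). It held between the ages, in pHes1_ENC and pHes1_EPC, for Bcor (0.35 and -0.36, differing by -0.71), Eed (0.42 and -0.33, differing by -0.75) and Cbx3 (-0.15 and 0.37, differing by 0.52). Suz12 (0.12 and -0.53) and Asxl2 (0.22 and -0.39) are in both groups, and for them the differences of -0.65 and -0.62 are the same quantity read the other way. The age value of Suz12 in pHes1_ENC fell below 0 with the same total (-0.01) and with quantile normalization (-0.02), and that of Cbx3 in pHes1_EPC with quantile normalization (-0.17), which ends the opposition there.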

How the results depend on the processing

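The number of the 9 genes past 2-fold between the fractions at P1 was 1 and that gene was Bmi1. With intervals that do not overlap in place of 2-fold the count was 6 (34.9% of all genes were higher and 32.7% lower by this rule), and at P4 it was 8 in place of 0 (44.2% and 29.2%). In the age comparisons the same rule gave 6 in pHes1_EPC (43.3% and 22.9%) and 7 in pHes1_ENC (27.4% and 31.5%), in place of 0. With FPKM rescaled to the same total, 2 genes were past 2-fold at P4 and 1 between the ages in pHes1_EPC, and median-of-ratios scaling and quantile normalization each gave 1 at P4. The share of all genes past 2-fold was not computed under these scalings, so these counts have no background beside them. The median difference of the 9 genes at P4, -0.54 as reported, was -0.84 with the same total, -0.71 with median-of-ratios scaling and -0.70 with quantile normalization. These scalings lower the values of P4 pHes1_EPC, and the median of all genes at P4 moved with them from 0.15 to -0.09, -0.0007 and -0.04. With the same total the age medians of all genes moved from 0.17 to -0.11 in pHes1_EPC and from -0.01 to -0.14 in pHes1_ENC. Of 360 values of single genes under an alternative, 16 had the opposite sign, all of them under the 3 scalings or the length correction and in differences that were not past 2-fold. Of the 36 differences of single genes, 9 changed sign under at least 1 alternative. Alternatives with other pseudocounts, filters or gene lines could not change a sign and so do not check it. A common pseudocount keeps the sign of a difference, and the filters and gene lines left the values of the 9 genes as they were. No replicate could be left out with 1 library per group. The labels give no replicate numbers. The fit of fraction and age treats the fractions of an age as a pair. By limma, 0 of the 9 genes had an adjusted p under 0.05 for fraction and 0 for age. At an unadjusted p under 0.05 from limma there were 3 for fraction and 0 for age, beside 4237 and 2222 of the 12946 genes. No paired analysis was possible within an age or a fraction because each group has 1 library. Depth limits Cbx7 and Cbx8 most, at 235 to 373 reads per library.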
